A study of Mus musculus with 16 samples.

Results

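Cytosolic ribosomal proteins are the protein parts of the ribosome that translates nuclear mRNAs. Their genes were taken from a deposited table of 21924 mouse protein-coding genes by symbol: Rpl or Rps with a number and an optional a, x or l ending, plus Rplp0, Rplp1, Rplp2 and Rpsa. This gave 81 genes, 50 of the large and 31 of the small subunit, spread over 19 chromosomes. All 81 passed the filter on low values, so every one was tested. The rule used symbols and no measured value.

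The cells were germline stem (GS) cells, cultured spermatogonia from mouse testis that are grown with GDNF and FGF2 on a layer of mouse embryonic fibroblasts. Messenger RNA was sequenced in 16 libraries, 2 in each of 8 groups. Hif1a KO and Hif1a wild type cells, of a mixed 129 x C57BL/6 background, were each kept at 1% oxygen and at 20% oxygen. Wild type DBA/2 cells were likewise kept at 1% and at 20% oxygen, and Top1mt KO cells and their wild type, both C57BL/6, at 1% oxygen. Hif1a encodes an oxygen-regulated transcription factor and Top1mt a mitochondrial DNA topoisomerase. The Hif1a KO cells received a Cre-carrying adenovirus (AxCANCre) on the day low oxygen began. Unless the Hif1a wild type cells received it too, virus and genotype cannot be told apart in comparisons between them. The series text gives 2 days at 1% oxygen, but the names of the Hif1a line libraries at 1% carry 6d, and the names at 1% and 20% carry different sample numbers. Oxygen and these sets of libraries cannot be told apart. The labels do not say that replicates were separate cultures, so p-values measure the spread between these libraries, which may be technical.

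Cytosolic ribosomal protein mRNAs begin with a pyrimidine tract (a TOP motif), through which mTORC1 and LARP1 control their translation. Most ribosomal protein genes are expressed in every cell type. A few have retrogene or duplicated relatives, such as Rpl10l and Rpl39l, that are known for expression in male germ cells. The X-linked parents Rpl10 and Rpl39 are silenced during meiosis, when Rpl10l substitutes for Rpl10 in the mouse.

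Promoter sequences are shown for the parent and relative of the 3 pairs on which the later results turn. They lie at chrX:74270696-74270845 (plus strand) for Rpl10, chr12:66284372-66284521 (minus strand) for Rpl10l, chrX:37085193-37085342 (minus strand) for Rpl39. The others lie at chr16:10170108-10170257 (plus strand) for Rpl39l, chr3:90213619-90213768 (minus strand) for Rps27, chr9:66945966-66946115 (plus strand) for Rps27l. They are from RefSeq on GRCm38.p6, cover 120 bases before to 30 after the annotated start on the gene's strand, and have capitals where 1 of 3 short motifs, described after the sequences, matches on either strand.
Rpl10: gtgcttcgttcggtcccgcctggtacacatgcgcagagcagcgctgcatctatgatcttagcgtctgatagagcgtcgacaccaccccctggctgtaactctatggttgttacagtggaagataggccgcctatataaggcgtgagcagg
Rpl10l: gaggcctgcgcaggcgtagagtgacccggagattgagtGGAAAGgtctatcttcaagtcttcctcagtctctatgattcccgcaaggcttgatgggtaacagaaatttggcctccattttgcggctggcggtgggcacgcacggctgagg
Rpl39: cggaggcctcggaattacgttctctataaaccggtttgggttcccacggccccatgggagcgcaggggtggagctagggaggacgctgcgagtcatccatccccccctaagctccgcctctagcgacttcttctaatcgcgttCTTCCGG
Rpl39l: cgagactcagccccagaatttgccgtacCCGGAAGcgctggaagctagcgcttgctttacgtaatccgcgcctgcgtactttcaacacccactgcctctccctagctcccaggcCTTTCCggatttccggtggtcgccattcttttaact
Rps27: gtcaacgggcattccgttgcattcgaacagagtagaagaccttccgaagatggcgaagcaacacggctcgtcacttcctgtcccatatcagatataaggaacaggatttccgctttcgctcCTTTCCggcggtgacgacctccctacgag
Rps27l: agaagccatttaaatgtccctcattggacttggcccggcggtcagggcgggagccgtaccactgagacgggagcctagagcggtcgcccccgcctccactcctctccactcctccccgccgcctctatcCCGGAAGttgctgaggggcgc

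RefSeq promoters of 300 bases (250 before to 50 after the start) were found for 61 of the 81 genes. The pyrimidine run CTTTCC stood on the gene's strand in 42.6% of them, against 16.01% of 27025 genes. CCGGAAG, the core bound by ETS factors, was present on either strand in 41.0%, against 9.93% of genes. ACGTG, the core of a hypoxia response element, was present on either strand in 29.5%, against 21.8%. These are matches of letters in a window, not binding sites.

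The libraries held 11942104 to 25659895 reads on genes, recovered from the steps of the deposited CPM values (reads per gene scaled to a common library total of 1000000). The targeted genes were checked first. Hif1a had 618 and 593 CPM in the Hif1a KO libraries at 1% oxygen, against 251 and 251 CPM in Hif1a wild type at 1%. At 20% oxygen it had 139 and 142 CPM in Hif1a KO and 116 and 118 CPM in Hif1a wild type. The mRNA level thus went against the KO label, and a count over a whole gene does not show whether an exon was removed. These libraries are therefore called labelled Hif1a KO. Top1mt had 9.99 and 10.96 CPM in Top1mt KO, against 32.8 and 34.8 CPM in its wild type. Markers of the feeder layer also varied. The summed CPM of 24 fibroblast genes averaged 68754 in labelled Hif1a KO at 1% oxygen and 19727 in labelled Hif1a KO at 20%. It averaged 34634 and 12981 in Hif1a wild type at 1% and 20% oxygen, 7898 and 8628 in DBA/2 at 1% and 20%, and 47696 and 24837 in Top1mt KO and its wild type. Germ cell identity genes (16 of them) totalled 1833 and 3776 CPM, 3854 and 4361 CPM, 4632 and 5471 CPM, and 2390 and 3805 CPM in the same pairs of groups. All 24 fibroblast genes had reads in every library.

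Ribosomal protein genes took 2.00% to 2.63% of the reads on genes, 264238 to 581016 reads per library. The share averaged 2.58% ± 0.0776 in DBA/2 at 1% oxygen and 2.01% ± 0.0134 in DBA/2 at 20% (SD, n = 2 each). It was 2.27% ± 0.0734 in Hif1a wild type at 1% and 2.14% ± 0.0211 at 20%. It was 2.15% ± 0.0126 in labelled Hif1a KO at 1% and 2.23% ± 0.0234 at 20%. Top1mt KO had 2.37% ± 0.0808 and its wild type 2.30% ± 0.0200. The share was higher at 1% oxygen in both wild type lines and lower at 1% in labelled Hif1a KO, with no overlap between the libraries in any of the 3 pairs. A share of all reads also moves with the reads on other genes. In labelled Hif1a KO the direction of the members' fold changes depended on the scaling, as given below. With 2 libraries a group, an exact permutation test of such a share cannot pass 0.05, so none is given. In bulk RNA, fewer cells of a type and less RNA per cell cannot be told apart.

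**Figure D1:**
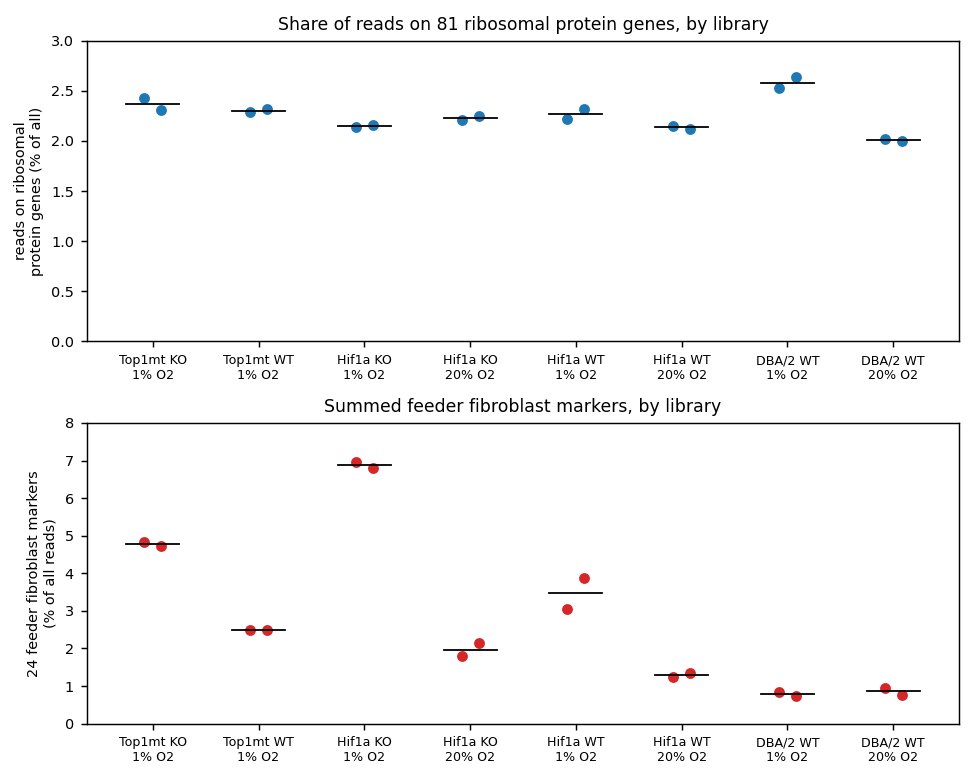
Share of reads on the 81 ribosomal protein genes (top, percent of reads on genes) and summed feeder fibroblast markers (bottom, percent of reads) in each library; points are libraries and lines are group means of 2. The ribosomal protein share lies between 2.00% and 2.63% throughout, and DBA/2 at 1% oxygen is the highest group.

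Levels differed widely between the genes. Mean CPM over all libraries ran from 2.38 to 1472, with a median of 219, and 71 genes were above 100 CPM. Per kb of transcript the highest were Rplp1 and Rplp2, the acidic stalk proteins that recruit elongation factors, at 1492 and 1074 CPM per kb. Rpl4, Rpl8 and Rps12 followed at 957, 803 and 795 CPM per kb. The lowest were Rpl3l, a relative of Rpl3 known from striated muscle, at 3.93 CPM per kb, and Rpl36al at 4.53, Rps10 at 13.7, Rpl13a at 24.7 and Rpl10l at 58.0 CPM per kb. Between groups the genes varied little: the ratio of the highest to the lowest group mean had a median of 1.45, against 2.32 over tested genes with no group at 0. It was above 2 for 9 of the 81 genes and for 62.8% of those tested genes. The tested genes were not matched to the 81 in level, and few reads can widen such a ratio. DBA/2 at 1% oxygen was the highest group for 44 genes and DBA/2 at 20% the lowest for 35.

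Levels of these genes also carry a limit of read assignment, since ribosomal protein genes have many processed pseudogenes. Of the 81 genes, 78 shared at least 1 stretch of 50 bases with an annotated pseudogene, and 47 shared over 50% of their stretches with other genes. How the authors' counting treated such reads is not stated in any source used. Rps27 shared 98.6%, Rps10 92.4% and Rpl10 92.1%, whereas Rpl39 shared 16.2%, Rpl10l 7.60%, and Rpl39l and Rpl3l none. Absolute levels of the shared genes are therefore uncertain. Exons of 7 of the 81 genes also overlapped another annotated gene on their strand, with snoRNA genes left out. Among the lowest genes per kb these were Rpl13a (32.8% of exon bases), Rpl36al (24.5%) and Rps10 (20.6%, a read-through gene). Their low levels carry this limit too. Across the 81 genes the level per kb and the shared percentage had a Spearman rho of -0.03, a description across genes that are not independent replicates.

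**Figure D2:**
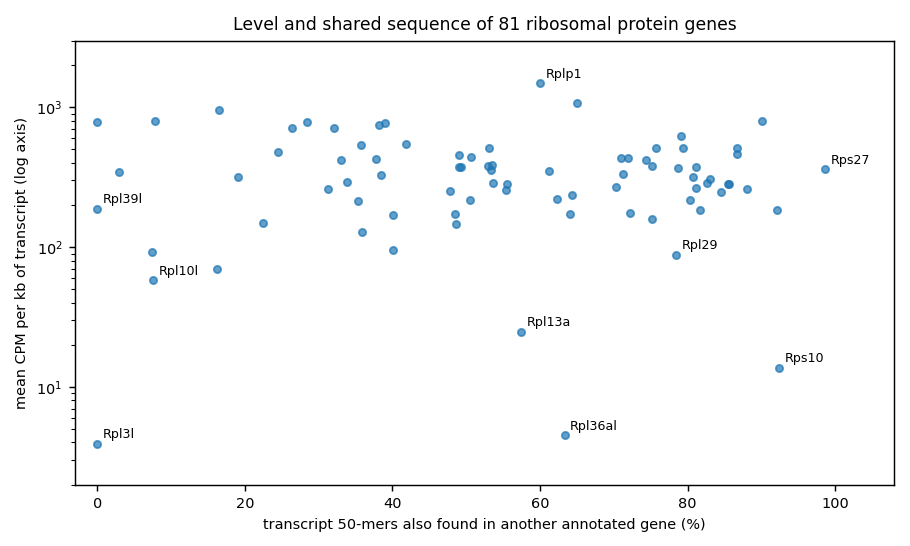
Mean CPM per kb of transcript over 16 libraries (log axis) against the percent of 50-base stretches also found in another annotated gene; each point is 1 of 81 ribosomal protein genes. Low genes lie at both ends: Rpl3l shares none and Rps10 shares 92.4%.

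In DBA/2 cells ribosomal protein mRNAs were broadly more abundant at 1% oxygen than at 20%. Of the 81 genes, 70 were higher and 2 lower at an adjusted p under 0.05 (limma, Benjamini-Hochberg over 14841 genes). Of all genes tested, 31.8% were higher and 25.5% lower. The median log2 fold change was 0.34 for the 81 genes and 0.04 for all genes. Both subunits were represented among the largest rises. Rps4x, the X-linked S4 protein of the small subunit, had 183 and 167 CPM at 1% oxygen, against 98.0 and 94.6 CPM at 20%, a log2 fold change of 0.85 ± 0.06 (SE, limma adjusted p = 5.62e-10). Rpl39, an X-linked protein of the peptide exit tunnel, had 52.3 and 50.2 CPM at 1%, against 32.3 and 28.8 CPM at 20% (log2 fold change 0.73, limma adjusted p = 2.15e-07). Rpl3, which lies near the peptidyl transferase centre, had 523 and 529 CPM at 1%, against 320 and 318 CPM at 20% (0.72, limma adjusted p = 5.68e-11). The libraries of the 2 groups did not overlap for any of these 3, which were chosen as the largest called rises, so this is no separate support.

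The same held for functional units within the ribosome. The 5S RNP proteins Rpl5 and Rpl11, which can also bind MDM2, rose by log2 fold changes of 0.47 and 0.44. The stalk proteins Rplp0, Rplp1 and Rplp2 rose by 0.21, 0.26 and 0.31. The lower genes were Rpl10l, at 68.9 and 79.3 CPM at 1% oxygen and 94.7 and 102 CPM at 20% (-0.40, limma adjusted p = 0.000853), and Rps10 (-0.38, limma adjusted p = 0.0336). Among the 34 genes that shared at most 50% of their sequence, 30 were higher and 1 lower. After median-of-ratios scaling, which sets the centre of all genes near 0, 68 were higher and 2 lower, against 28.2% and 28.2% of all genes. The fibroblast sum was 7898 CPM at 1% and 8628 CPM at 20%, but its genes did not all stay level. On deposited CPM 4 of the 24 were higher and 13 lower, against 31.8% and 25.5% of all genes. Their part was not tested. Without the first library at 1% or the second at 20%, 1 gene was lower.

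In Hif1a line wild type cells the same comparison gave smaller differences. At 1% oxygen 28 genes were higher and 2 lower, against 18.4% and 34.6% of all genes, and the median log2 fold change was 0.09, against -0.09 for all genes. Rpl27a had 152 and 170 CPM at 1%, against 128 and 125 CPM at 20% (0.34 ± 0.07, limma adjusted p = 0.000327). Rpl39 had 32.4 and 33.4 CPM at 1%, against 26.8 and 25.2 CPM at 20% (0.33, limma adjusted p = 0.00189), and Rpl13a rose by 0.29. Rpl10l had 48.4 and 62.4 CPM at 1%, against 80.98 and 79.5 CPM at 20% (-0.54, limma adjusted p = 6.04e-05), and Rpl3l fell by 0.54 on the log2 scale. The count rested on single libraries: 17 genes were higher without the second library at 1% and 14 without the second library at 20%, and 5 and 1 were lower. Without the first library at 1%, 1 gene was lower. After median-of-ratios scaling 51 were higher and 2 lower, against 24.5% and 24.9% of all genes. The fibroblast sum was 34634 CPM at 1% and 12981 CPM at 20%; its part was not tested.

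The signed log2 fold change with oxygen was lower in the Hif1a line wild type than in DBA/2 for 50 of the 81 genes and higher for 1, Rps10, against 30.9% lower and 15.1% higher among all genes. The lines differ in strain and the 1% libraries of the Hif1a line carry 6d in their names, so strain, time and set cannot be told apart here. For Rps4x the difference of the log2 fold changes was -0.59, for Rpl3 -0.65 and for Rpl3l -1.02. Rpl3l went opposite ways, at -0.54 in Hif1a wild type and 0.48 in DBA/2, and Rps10 had 0.19 in Hif1a wild type, which did not pass the test, and -0.38 in DBA/2. After median-of-ratios scaling 27 genes had a lower fold change and 1 a higher one, against 19.9% and 21.1% of all genes. Rps10 was not called without the second Hif1a wild type library at 1%, the first DBA/2 library at 1% or the second at 20%.

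In labelled Hif1a KO cells, calls on deposited CPM went both ways at 1% oxygen. Against 20% oxygen 20 were higher (24.7%) and 31 lower (38.3%), where 25.2% of all genes were higher and 54.7% lower. The share of higher members was thus near that of all genes. The median log2 fold change of the members was -0.07, against -0.29 for all genes. This balance depended on the scaling: after median-of-ratios scaling, which moved the median of all genes to 0.02, 61 were higher and 5 lower (39.9% and 35.4% of all genes), and the members' median was 0.29. The members' median minus that of all genes was 0.22 before and 0.27 after. Of the 31 lower genes, 12 were higher after that scaling. Rps4x had 245 and 241 CPM at 1%, against 149 and 153 CPM at 20% (0.68 ± 0.06, limma adjusted p = 2.55e-09). Rpl39 had 58.0 and 55.3 CPM at 1%, against 34.2 and 36.9 CPM at 20% (0.66, limma adjusted p = 2.47e-07). Rpl10, the X-linked protein that completes the peptidyl transferase centre late in assembly, had 213 and 205 CPM at 1%, against 144 and 144 CPM at 20% (0.54, limma adjusted p = 2.98e-07). Without the first library at 20%, 11 genes were higher.

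The 5 genes that were lower under both scalings included the relatives Rpl10l, Rpl39l and Rpl3l. Rpl10l had 26.0 and 28.6 CPM at 1% oxygen, against 66.3 and 66.9 CPM at 20% (-1.26 ± 0.09, limma adjusted p = 1.34e-10). Rpl39l had 48.6 and 48.4 CPM at 1%, against 95.7 and 92.9 CPM at 20% (-0.95, limma adjusted p = 1.45e-11). The other two were Rpl34 (-0.72) and Rpl26 (-0.68), both proteins of the large subunit. The fibroblast sum was 68754 CPM at 1% and 19727 CPM at 20%, and the germ cell sum 1833 CPM and 3776 CPM. Their part in these differences was not tested.

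**Figure D3:**
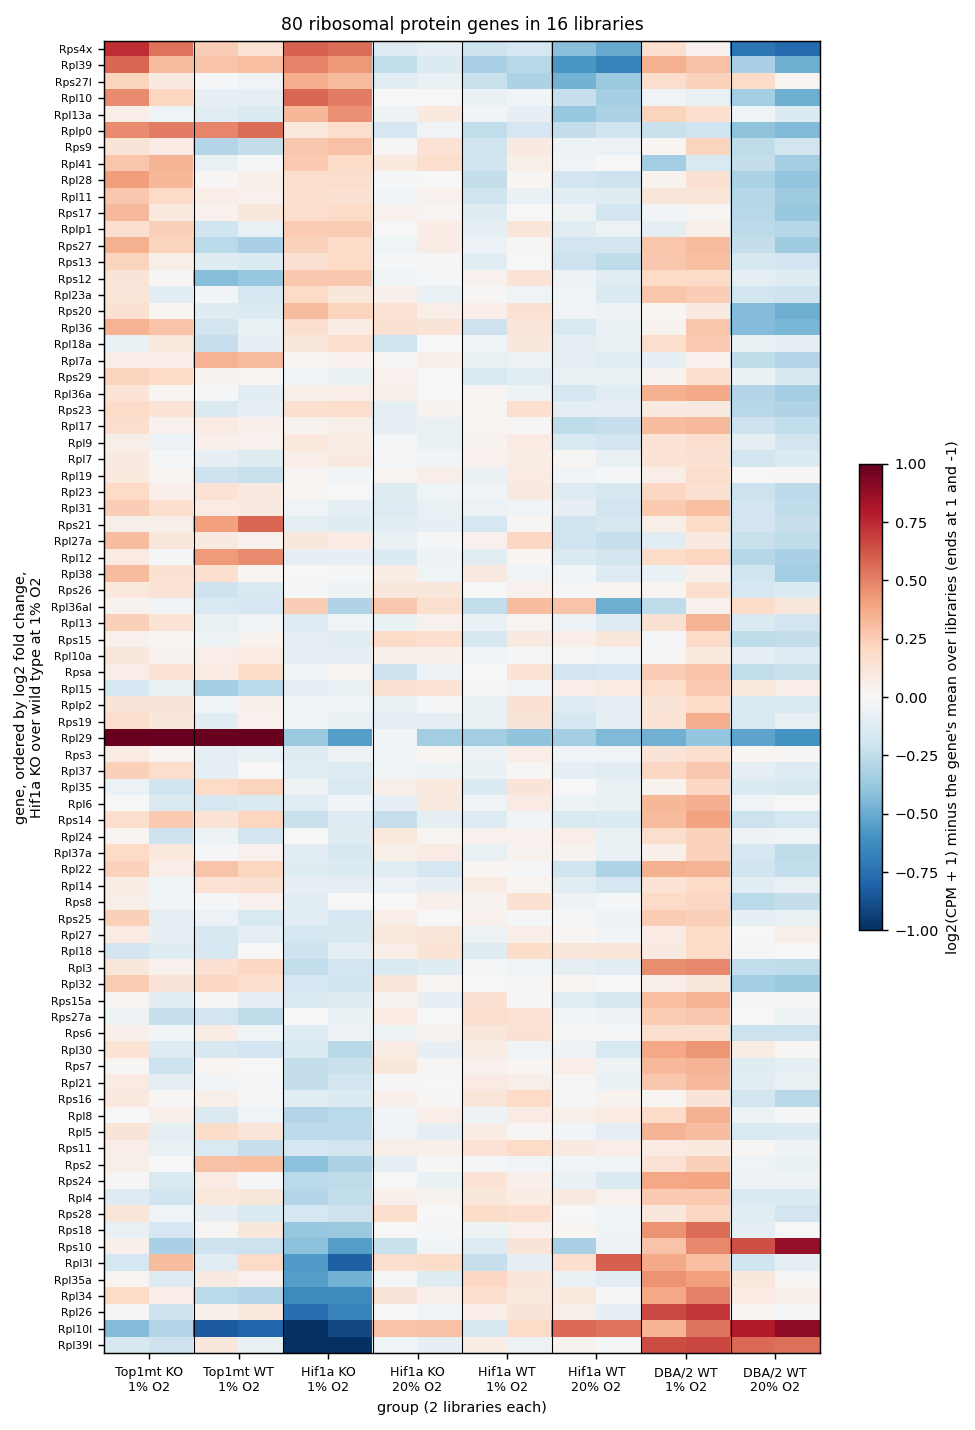
Log2(CPM + 1) of each of 80 ribosomal protein genes minus its own mean, in 16 libraries; rows are ordered by the log2 fold change of labelled Hif1a KO over Hif1a wild type at 1% oxygen, and the colour scale ends at 1 and -1. The labelled Hif1a KO libraries at 1% are red in the top rows (Rps4x, Rpl39) and blue in the bottom rows (Rpl10l, Rpl39l).

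Labelled Hif1a KO was also set against Hif1a wild type at each oxygen level. At 1% oxygen, a comparison that shares the labelled KO libraries with the preceding one, 17 genes were higher and 30 lower, against 28.3% and 49.1% of all genes. The median log2 fold change was -0.08, against -0.21 for all genes, and it was 0.20 with 51 higher and 5 lower (40.0% and 33.9% of all genes) after median-of-ratios scaling. That scaling moved all genes alike, and the members' median minus that of all genes was 0.13 before it and 0.17 after it. Rps4x had 245 and 241 CPM in labelled KO, against 140 and 144 CPM in wild type (0.77, limma adjusted p = 6.14e-10). Rpl39 had 58.0 and 55.3 CPM in labelled KO, against 32.4 and 33.4 CPM in wild type (0.77), and Rps27l had 93.7 and 90.6 CPM, against 62.2 and 58.3 CPM (0.61). Rpl39l had 48.6 and 48.4 CPM in labelled KO, against 104 and 94.4 CPM in wild type (-1.01, limma adjusted p = 1.26e-11), Rpl10l differed by -0.99 and Rpl26 by -0.80. The fibroblast sum was 68754 CPM in labelled KO and 34634 CPM in wild type, and its part was not tested.

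At 20% oxygen 13 genes were higher and 1 lower in labelled Hif1a KO, against 12.9% and 9.55% of all genes, with medians of 0.07 and -0.03. The share of higher members was close to that of all genes. Rpl39 (0.44), Rpl13a (0.37) and Rps4x (0.35) had the largest rises, and Rpl10l (-0.26, limma adjusted p = 0.0422) was the lower one. The fibroblast sum was 19727 CPM in labelled KO and 12981 CPM in wild type, and its part was not tested. The count of higher genes was 4 to 7 without the second labelled KO library or without either wild type library at 20%. Rpl10l was not called after median-of-ratios scaling, nor when any 1 of the 4 libraries at 20% in this comparison, or either Top1mt wild type library, was left out.

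The test of the difference between the oxygen responses of labelled Hif1a KO and Hif1a wild type found a higher response for 5 genes and a lower one for 30, against 19.0% and 39.0% of all genes. Under median-of-ratios scaling this became 28 higher and 5 lower, against 33.3% and 20.9% of all genes, and the members' median minus that of all genes was 0.02 before that scaling and 0.06 after it. Rps4x (0.42) and Rpl39 (0.33) had the largest higher responses with Rpl10 (0.30), and Rpl39l (-0.94), Rpl34 (-0.81) and Rpl26 (-0.79) the lowest. Without the second wild type library at 1% oxygen 11 genes had a higher response, and without the first labelled KO or the first wild type library at 20% there were 3.

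Top1mt KO cells at 1% oxygen had 33 genes higher and 11 lower than their wild type, against 25.2% and 33.2% of all genes, with medians of 0.12 and -0.04. Rps27, a zinc-binding small subunit protein, had 157 and 143 CPM in Top1mt KO, against 101.2 and 97.4 CPM in wild type (0.59 ± 0.06, limma adjusted p = 4.51e-08). Rps12 rose by 0.47 and Rpl36 by 0.45. Rps21 had 286 and 287 CPM in Top1mt KO, against 366 and 410 CPM in wild type (-0.43, limma adjusted p = 4.26e-06), Rpl12 of the stalk base differed by -0.42 and Rpl35 by -0.34. Libraries of the 2 groups did not overlap for these 6 genes, which were chosen as the largest called differences, so this is no separate support. The fibroblast sum was 47696 CPM in KO and 24837 CPM in wild type, its part not tested. Without the first KO library 21 were higher, and without the second KO or the second wild type library 7 were lower.

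**Figure D4:**
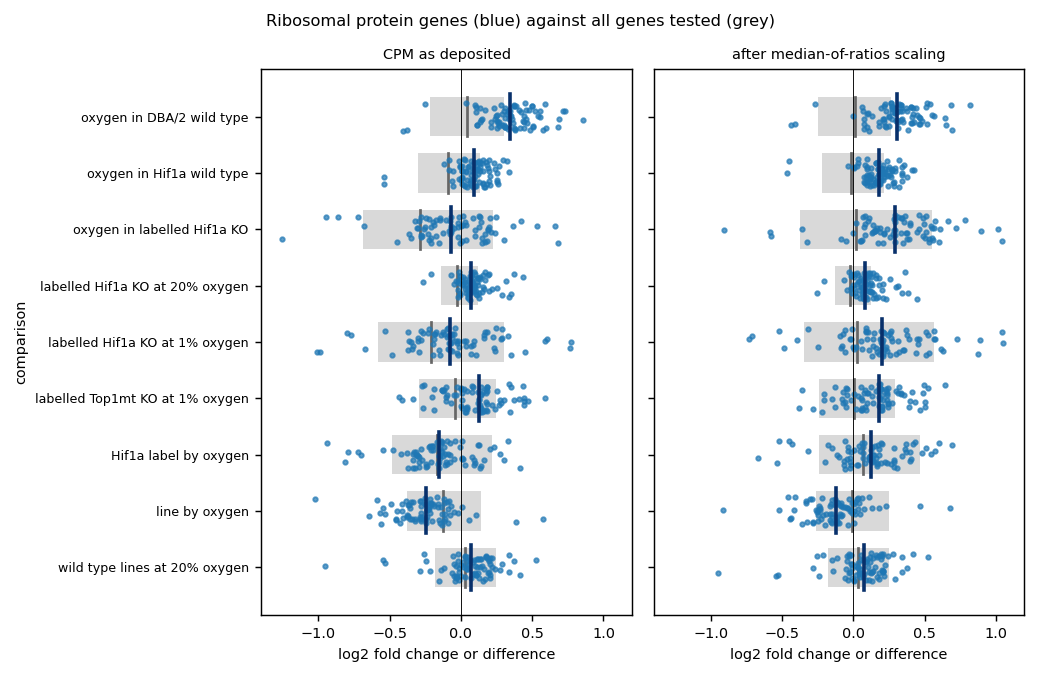
Log2 fold changes, or differences of log2 fold changes, of the 81 ribosomal protein genes in 9 comparisons (blue points; dark bars are their medians) over the interquartile range of all genes tested (grey; grey bars are medians), on deposited CPM (left) and after median-of-ratios scaling (right). The members' median is 0.34 in DBA/2 on deposited CPM, and in labelled Hif1a KO it is -0.07 on the left and 0.29 on the right.

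A ratio of a relative to its parent within a library does not depend on scaling. It does carry the limit of read assignment: Rpl10 shares 92.1% of its 50-base stretches and Rpl10l 7.60%, so the size of their ratio is uncertain. Rpl10l was 49.6% and 58.4% of Rpl10 in DBA/2 at 1% oxygen, against 84.1% and 99.9% at 20%. It was 35.4% and 44.5% in Hif1a wild type at 1%, against 66.7% and 69.9% at 20%. The labelled Hif1a KO libraries had 12.17% and 13.97% at 1%, against 46.1% and 46.5% at 20%. The ratio was lower at 1% oxygen in all 3 pairs with no overlap. In Top1mt KO it was 20.1% and 26.5%, against 22.3% and 23.2% in wild type, where the groups overlapped.

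Rpl39l exceeded Rpl39 in most libraries. It was 297% and 313% of Rpl39 in DBA/2 at 1% oxygen, against 452% and 504% at 20%, and 283% and 320% in Hif1a wild type at 1%, against 377% and 386% at 20%. The labelled Hif1a KO libraries had 83.8% and 87.4% at 1%, against 252% and 279% at 20%, the only group below its parent. Top1mt KO had 145% and 167%, against 186% and 214% in wild type. Rpl39l itself did not pass the test in DBA/2 (0.10) or in Hif1a wild type (-0.01), so the lower ratio there went with the rise of Rpl39.

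Rps27l, a p53 target that is close to Rps27, showed another order. It was 55.6% and 56.2% of Rps27 in DBA/2 at 1% oxygen, against 78.0% and 80.0% at 20%. In Hif1a wild type it was 47.3% and 52.9% at 1%, against 48.6% and 52.1% at 20%, which overlap. In labelled Hif1a KO it was 65.1% and 65.3% at 1%, against 53.9% and 56.9% at 20%, and in Top1mt KO 54.0% and 54.4%, against 70.8% and 72.9% in wild type. Rps27 shares 98.6% of its sequence with other genes, so this ratio is the least certain. Rpl3l stayed at 0.76% to 2.39% of Rpl3 and Rpl36al at 1.03% to 2.53% of Rpl36a. These are descriptions of ratios with no test. The Rpl10l and Rpl39l ratios and the germ cell sum were lower at 1% oxygen in DBA/2, Hif1a wild type and labelled Hif1a KO. The feeder sum was higher at 1% in both Hif1a line pairs, and was 7898 CPM at 1% and 8628 CPM at 20% in DBA/2. In Top1mt KO the feeder sum was 47696 CPM, against 24837 CPM in wild type. The germ cell sum there was 2390 CPM, against 3805 CPM. Between these groups the Rpl10l ratio overlapped, and the Rpl39l ratio was lower in KO with no overlap. Rpl10l itself had 39.8 and 44.0 CPM in Top1mt KO, against 30.1 and 31.0 CPM in wild type. The part of these sums was not tested.

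**Figure D5:**
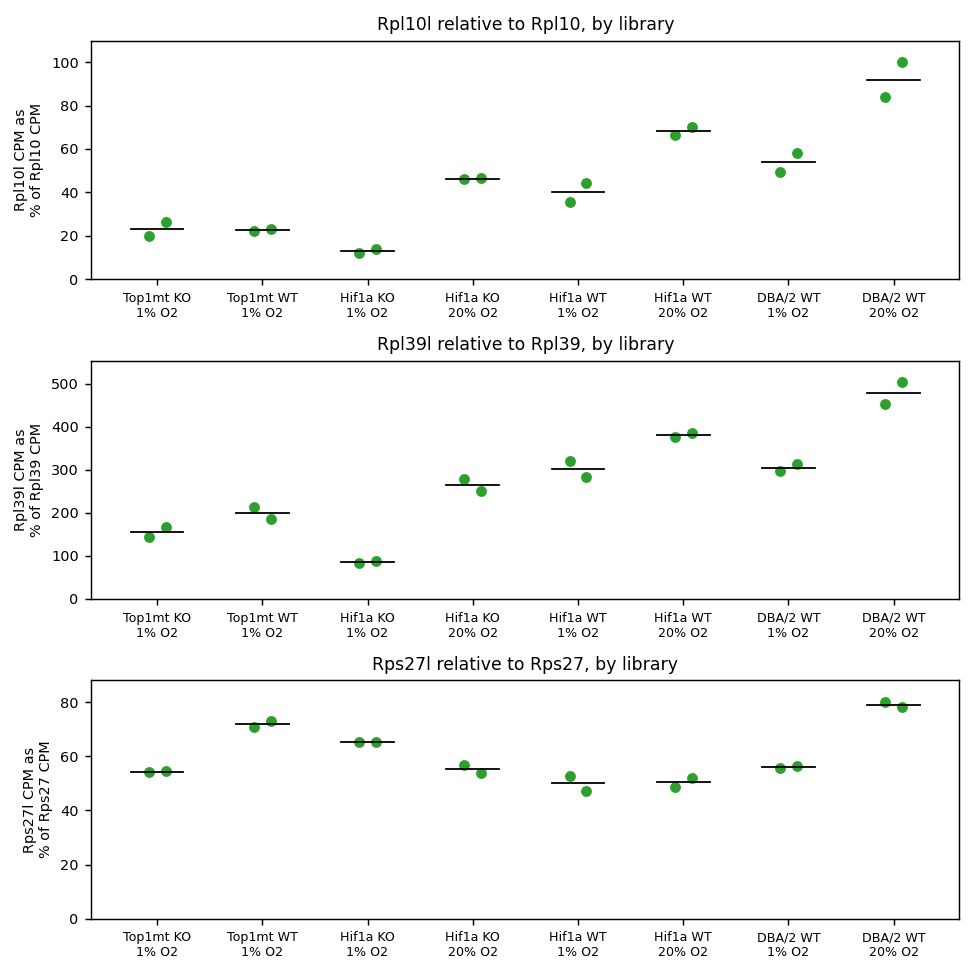
CPM of Rpl10l, Rpl39l and Rps27l as a percent of the CPM of Rpl10, Rpl39 and Rps27 in each library; points are libraries and lines are means of 2. Labelled Hif1a KO at 1% oxygen is lowest for Rpl10l (12.17% and 13.97%) and Rpl39l (83.8% and 87.4%).

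The 4 X-linked genes, Rpl10, Rpl36a, Rpl39 and Rps4x, passed the test as higher in several comparisons. All 4 were higher at 1% oxygen in DBA/2 and in Hif1a wild type, and 3 of 4 in labelled Hif1a KO, where Rpl36a was at 0.03. Of all genes 31.8%, 18.4% and 25.2% were higher in these comparisons, and of the 81 ribosomal protein genes 86.4%, 34.6% and 24.7%, so 4 of 4 is close to the members' own share in DBA/2. Their median log2 fold changes were 0.71, 0.25 and 0.60 in that order. All 4 were also higher in labelled Hif1a KO than in Hif1a wild type at 20% oxygen. There 12.9% of all genes and 13 of the 81 ribosomal protein genes were higher. The count of higher ribosomal protein genes at 20% rested on single libraries, as given above. Rpl36a was called in Hif1a wild type at an adjusted p of 0.0455 by limma, and that call ended without the first Hif1a wild type library at 1%, either at 20%, either labelled Hif1a KO library at 1% or any DBA/2 library.

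Wild type lines were also compared at 20% oxygen. In the Hif1a line 25 genes (30.9%) were higher and 7 (8.64%) lower than in DBA/2, against 26.4% and 22.6% of all genes, with medians of 0.07 and 0.03. The share of higher members was near that of all genes, and the share of lower members was below it. Strain and set of libraries cannot be told apart here. Rps20 (0.41) and Rpl32 (0.37) were higher with Rpl3l (0.53), and Rps10 (-0.96), Rpl39l (-0.55) and Rps27l (-0.53) were lower. Without the second Hif1a wild type or the first DBA/2 library at 20%, 4 were lower. Rpl29, chosen after its values were seen, had 92.8 to 114 CPM in the 4 C57BL/6 libraries and 29.2 to 43.8 CPM in the other 12, and shares 78.5% of its 50-base stretches with other genes.

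Ribosomal proteins outside the symbol rule behaved variously. Rack1, a scaffold on the small subunit, averaged 915 CPM at 1% oxygen and 643 CPM at 20% in DBA/2 (0.51, limma adjusted p = 1.31e-08), and Rpl22l1, a relative of Rpl22, 161 and 83.4 CPM (0.94, limma adjusted p = 1.54e-09). Rps3a1 (0.40) and Fau (0.22) also rose, and Rpl7l1 (0.08) did not pass. Fau lost its call after median-of-ratios scaling (0.18). Rpl7l1 was lower in Hif1a wild type (-0.16), a call that ended after that scaling (-0.08). Fau, in labelled Hif1a KO, was higher (0.26) and Rpl7l1, Rpl22l1 and Rps3a1 were lower (-0.57, -0.37 and -0.20), but after median-of-ratios scaling Rpl7l1 alone of these 3 was called lower (-0.21), Rpl22l1 was not called (-0.017) and Rps3a1 was higher (0.16). Rps27rt did not pass the filter on low values.

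Other genes of ribosome production were counted in the 3 comparisons of 1% with 20% oxygen. Among all genes 31.8% were higher and 25.5% lower in DBA/2, 18.4% and 34.6% in Hif1a wild type, and 25.2% and 54.7% in labelled Hif1a KO. After median-of-ratios scaling these were 28.2% and 28.2%, 24.5% and 24.9%, and 39.9% and 35.4%. Of 18 translation factors and other genes with TOP mRNAs, 13 were higher and 1 lower at 1% oxygen in DBA/2, with a median of 0.25; Tpt1 (0.60), Eif4b (0.55) and Npm1 (0.43) had the smallest adjusted p. In Hif1a wild type 3 were higher and 4 lower and in labelled Hif1a KO 4 and 10. After that scaling the counts were 12 and 1, 5 and 3, and 13 and 4 in the same order. This list includes Vim, which is also among the fibroblast genes. In labelled Hif1a KO Vim had 2649 and 2598 CPM at 1% oxygen, against 1288 and 1516 CPM at 20%. Of 46 ribosome assembly genes 9 were higher and 18 lower in DBA/2, 1 and 30 in Hif1a wild type, and 1 and 44 in labelled Hif1a KO, and after scaling 7 and 22, 3 and 23, and 3 and 37. Rrp12, an export factor of both subunits, fell by 0.63 in DBA/2 and 0.43 in Hif1a wild type on the log2 scale. Fbl, the rRNA methyltransferase fibrillarin, fell by 0.98 in labelled Hif1a KO.

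Of 14 RNA polymerase I genes 2 were higher and 6 lower in DBA/2, 1 and 8 in Hif1a wild type, and 0 and 13 in labelled Hif1a KO. After median-of-ratios scaling these were 1 and 6, 1 and 6, and 1 and 11. Taf1c, a subunit of the selectivity factor, fell by 1.17 in DBA/2 and 0.74 in Hif1a wild type, and Polr1b by 1.02 in labelled Hif1a KO. Of 77 mitochondrial ribosomal proteins tested, 17 were higher and 19 lower in DBA/2, 1 and 46 in Hif1a wild type, and 1 and 60 in labelled Hif1a KO. After scaling these were 13 and 25, 2 and 30, and 13 and 35. Among regulators, Ddit4, an inhibitor of mTORC1 signalling, rose in all 3 (1.71, 0.62 and 1.04). Myc rose in Hif1a wild type (1.53) and labelled Hif1a KO (2.09) and had 0.10 in DBA/2. Mxi1, of the same MYC network list, rose in DBA/2 (1.17) and in Hif1a wild type (0.81). It had the smallest adjusted p of that list in both. Mycn and Mycl, of the same list, fell in labelled Hif1a KO (-1.20 and -1.159), with smaller adjusted p than Myc. Mycl rose in DBA/2 (1.158). Larp1 fell by 0.70 in labelled Hif1a KO. Of 11 MYC network genes 4 were higher and 1 lower, 4 and 5, and 4 and 6 in that order of comparisons, and 4 and 2, 4 and 3, and 5 and 5 after scaling. Of 24 tested mTORC1 genes 6 were higher and 9 lower, 6 and 8, and 7 and 14, shares in labelled Hif1a KO near those of all genes. After scaling the balance turned in Hif1a wild type, to 9 higher and 5 lower, and in labelled Hif1a KO, to 10 and 6, with 6 and 10 in DBA/2.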

How the data were processed

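The deposited values are CPM of 21924 protein-coding genes in 16 libraries, each summing to 1000000, normalized by the authors. Per the labels' protocols, libraries were made with a stranded TruSeq mRNA kit. Per the submitters' processing notes, STAR 2.6.0c, cutadapt 1.16, HTSeq 0.11.2, DESeq2 1.22.2 and mm10 were used. All values (100%) were whole multiples of 1 read within 0.01, so reads were recovered; totals limit precision as given. The 14841 genes that reached 1 CPM in 2 or more libraries were fitted with limma 3.58.1 (R 4.3.3) on log2(CPM + 1), 1 mean per group, with 9 comparisons and Benjamini-Hochberg adjustment at 0.05. Adding 1 understates folds of low genes. The fit was tested on simulated data. Alternatives were a pseudocount of 0.5, no filter, median-of-ratios and TMM scaling, edgeR 4.0.16 and DESeq2 1.42.0 on recovered reads, a replicate block and leaving out each library. Shared 50-base stretches came from GENCODE M21 transcripts. Named genes were the 3 largest called rises and falls per comparison, and the 5 highest and lowest per kb. Relatives and their parents, stalk and 5S proteins, and ribosomal proteins outside the symbol rule were also named. Genes named from other lists were among the 3 with the smallest adjusted p in a comparison, and not all of those are named. The members and lists were chosen with earlier results of these data known. Values of 2 single genes are not reported here, and 1 of them is left out of the heat map.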

Additional observations from a re-analysis of the deposited data

Results flagged for a closer look

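Responses to oxygen differed between groups for the ribosomal protein genes by a test of the difference itself (limma, adjusted over all genes). Between labelled Hif1a KO and Hif1a wild type cells, 5 genes had a higher and 30 a lower response to 1% oxygen, against 19.0% and 39.0% of all genes, so the lower share was near that of all genes. After median-of-ratios scaling 28 were higher and 5 lower, against 33.3% and 20.9%. The difference of the log2 fold changes was 0.30 for Rpl10, 0.33 for Rpl39, 0.42 for Rps4x and 0.27 for Rps27l. It was -0.72 for Rpl10l and -0.94 for Rpl39l. Between Hif1a wild type and DBA/2 cells, 1 gene had a higher and 50 a lower response, against 15.1% and 30.9% of all genes. After median-of-ratios scaling 1 was higher and 27 lower, against 21.1% and 19.9%. The difference was -0.41 for Rpl39 and -0.59 for Rps4x.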

How the results depend on the processing

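Most changes came with another scaling or a count model; the cause was not tested. The count of higher genes in Hif1a wild type at 1% oxygen was 51, 52, 52 and 51 with median-of-ratios scaling, TMM scaling, edgeR and DESeq2. In the same order of alternatives, labelled Hif1a KO at 1% against 20% oxygen had 61, 55, 54 and 61 genes higher and 5, 6, 5 and 5 lower. Labelled Hif1a KO against wild type at 1% had 51, 47, 46 and 50 higher and 5, 7, 7 and 5 lower. The difference of these responses had 28, 23, 23 and 24 higher and 5, 7, 7 and 5 lower, and that between the lines 27, 24, 24 and 21 lower. Median-of-ratios scaling, TMM scaling, DESeq2 and no filter left 0 lower in labelled Hif1a KO at 20%, DESeq2 left 6 lower in Top1mt KO, and no filter left 1 lower in DBA/2 and 0 higher between the lines' responses. Without genes of the mitochondrial genome in the total, the share of reads was 2.35% in Top1mt wild type, 2.18% and 2.27% in labelled Hif1a KO at 1% and 20%, 2.18% in Hif1a wild type at 20% and 2.06% in DBA/2 at 20%. Leaving out 1 library at a time gave 63 to 72 higher and 1 to 2 lower in DBA/2, 14 to 32 higher and 1 to 5 lower in Hif1a wild type, 11 to 23 higher and 24 to 31 lower in labelled Hif1a KO (each 1% against 20% oxygen). It gave 4 to 16 higher and 0 to 1 lower in labelled Hif1a KO against wild type at 20%, 15 to 19 higher and 26 to 36 lower in labelled Hif1a KO against wild type at 1%, 21 to 37 higher and 7 to 16 lower in Top1mt KO against wild type. It gave 3 to 11 higher and 24 to 41 lower in the difference of responses by Hif1a label, 0 to 1 higher and 38 to 57 lower in the difference of responses by line, 18 to 26 higher and 4 to 7 lower in the lines at 20% oxygen. Named genes called before or after the change of setting took the other sign under those 4 alternatives alone, all in comparisons with labelled Hif1a KO at 1% oxygen, and their log2 values follow. Uncalled values near 0 also changed sign, in other comparisons too and when 1 library was left out. With median-of-ratios scaling, 1% against 20% oxygen in labelled Hif1a KO gave Rpl3 0.28, Rpl32 0.10, Rpl35 0.19, Rpl36 0.34, Rpl4 0.0542, Rpl5 0.17, Rpl8 0.0619, Rps21 0.35 and Rps3a1 0.16. With TMM scaling, 1% against 20% oxygen in labelled Hif1a KO gave Rpl3 0.24, Rpl32 0.0589, Rpl35 0.14, Rpl36 0.29, Rpl4 0.00904, Rpl5 0.12, Rpl8 0.0168, Rps21 0.30 and Rps3a1 0.12. With edgeR, 1% against 20% oxygen in labelled Hif1a KO gave Rpl3 0.24, Rpl32 0.0631, Rpl35 0.14, Rpl36 0.30, Rpl4 0.0134, Rpl5 0.13, Rpl8 0.0198, Rps21 0.31 and Rps3a1 0.12. With DESeq2, 1% against 20% oxygen in labelled Hif1a KO gave Rpl3 0.29, Rpl32 0.11, Rpl35 0.19, Rpl36 0.34, Rpl4 0.0582, Rpl5 0.17, Rpl8 0.0645, Rps21 0.35 and Rps3a1 0.17. With median-of-ratios scaling, labelled Hif1a KO against wild type at 1% oxygen gave Rpl12 0.24, Rpl27a 0.26, Rpl3 0.0931, Rpl32 0.0911, Rpl35 0.19, Rplp2 0.21 and Rps21 0.26. With TMM scaling, labelled Hif1a KO against wild type at 1% oxygen gave Rpl12 0.21, Rpl27a 0.22, Rpl3 0.0572, Rpl32 0.0552, Rplp2 0.17 and Rps21 0.22. With edgeR, labelled Hif1a KO against wild type at 1% oxygen gave Rpl12 0.21, Rpl27a 0.22, Rpl3 0.0601, Rpl32 0.0567, Rplp2 0.17 and Rps21 0.22. With DESeq2, labelled Hif1a KO against wild type at 1% oxygen gave Rpl12 0.25, Rpl27a 0.26, Rpl3 0.0972, Rpl32 0.0933, Rplp2 0.20 and Rps21 0.26. With median-of-ratios scaling, the difference of the oxygen responses gave Rpl3 0.12, Rpl32 0.0270, Rpl36a 0.18 and Rpl8 0.0306. With TMM scaling, the difference of the oxygen responses gave Rpl3 0.0789. With edgeR, the difference of the oxygen responses gave Rpl3 0.0798. With DESeq2, the difference of the oxygen responses gave Rpl3 0.13, Rpl32 0.0292 and Rpl8 0.0298. Among the other values of single genes, 20 calls were lost and 28 gained with median-of-ratios scaling, 20 and 28 with TMM scaling, 20 and 29 with edgeR, 23 and 26 with DESeq2, 16 and 0 with no filter, and 0 and 1 with a pseudocount of 0.5. Leaving out 1 library lost 161 calls and gained 60 over the 16 libraries. The replicate numbers are not said to pair samples: correlations of replicate deviations between groups ran from -0.21 to 0.27. With a replicate block 72 genes were higher and 2 lower in DBA/2 at 1% oxygen, and no count of calls moved by over 1.5 times in any of the 9 comparisons; 4 calls of single genes were gained and 0 lost. Depth limits Rpl36al and Rpl3l most, at 2.38 and 5.41 CPM on average, where 1 read is 0.0390 to 0.0837 CPM.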
